A study of Mus musculus with 12 samples.

Results

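Tiparp encodes TIPARP (also called PARP7), the TCDD-inducible ADP-ribosyltransferase. It is 1 of 18193 genes measured and was read by the 3 probe sets annotated to Tiparp alone, of 34945 probe sets that name a single gene on the array. The annotation gives these 3 the same representative transcript sequence, so they are not independent measurements. Tiparp was chosen as a known target of the aryl hydrocarbon receptor (AHR), not by a threshold on these data. RNA came from primary mouse hepatocytes kept 48 h in culture and then exposed for 6 h. The 4 groups held 3 arrays each. The hAHR TCDD and hAHR DMSO groups were cells of mice on the background B6.Cg-Ahrtm3.1Bra with the transgene Tg (Alb-cre, Ttr-AHR)1Ghp. They carry a floxed mouse Ahr allele, a Cre transgene driven by the Alb promoter and human AHR driven by the Ttr promoter. Both promoters act in hepatocytes, so other cell types of these livers may keep the mouse receptor. The C57BL6/J TCDD and C57BL6/J DMSO groups were wild type cells. TCDD was given at 10 nM against vehicle, and the medium of all 12 cultures already held 2.5% dimethyl sulfoxide and 10 nM dexamethasone. Each array stands for 1 mouse by the study's design, and neither age nor sex is in the labels. The labels do not say whether same-numbered TCDD and DMSO cultures share a mouse. The main fit treats all 12 arrays as independent.

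TCDD, a dioxin, binds the AHR, which then enters the nucleus, pairs with ARNT and binds DNA at elements whose core reads GCGTG. Tiparp is among the genes switched on in this way. Its product attaches single ADP-ribose units, taken from NAD, to proteins that include the AHR itself, and in mice it lowers AHR activity and limits the toxicity of dioxin. Tiparp therefore forms a negative feedback loop, alongside the repressor AHRR and the cytochromes that break down AHR ligands.

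The stretch before the Tiparp start site is shown because the receptor acts through DNA, together with those of 2 genes whose signal moved with that of Tiparp. These 2 are examples and not the 2 genes most like Tiparp. Cyp1a1 encodes a cytochrome P450 and is the classical AHR target, and Tac1 encodes the precursor of the neuropeptide substance P. The sequences are from RefSeq (GRCm38.p6, plus strand) and are the 250 bases before each start, at chr3:65528197-65528446 for Tiparp, chr9:57697363-57697612 for Cyp1a1 and chr6:7554811-7555060 for Tac1. Capitals mark GCGTG on either strand, which reads CACGC where the element lies on the opposite strand.
Tiparp: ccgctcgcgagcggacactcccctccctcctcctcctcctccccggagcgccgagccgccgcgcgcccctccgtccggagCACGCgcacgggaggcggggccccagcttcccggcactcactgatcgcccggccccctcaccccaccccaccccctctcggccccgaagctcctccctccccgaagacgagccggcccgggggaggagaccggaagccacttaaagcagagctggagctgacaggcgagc
Cyp1a1: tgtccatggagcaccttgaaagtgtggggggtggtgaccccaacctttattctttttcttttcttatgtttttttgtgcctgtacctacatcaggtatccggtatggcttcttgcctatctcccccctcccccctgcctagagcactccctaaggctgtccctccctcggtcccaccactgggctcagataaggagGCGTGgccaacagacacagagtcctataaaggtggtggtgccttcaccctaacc
Tac1: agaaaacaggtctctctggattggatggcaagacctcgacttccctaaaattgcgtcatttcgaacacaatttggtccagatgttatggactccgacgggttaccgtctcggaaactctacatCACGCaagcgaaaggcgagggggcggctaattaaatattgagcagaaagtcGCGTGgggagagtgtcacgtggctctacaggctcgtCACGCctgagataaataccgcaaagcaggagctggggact

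The Tiparp stretch held 1 core, on the opposite strand and beginning 170 bases before the start, in a window that was 75.2% G or C. Cyp1a1 held 1 core, 54 bases before the start, and Tac1 held 3. Of all 32851 promoter windows of this length, 28.2% held at least 1 core, and 44.8% did among the windows of the brighter 60% of measured genes. The longer form TNGCGTG, which contains the core, was present on either strand in 4.1% of all windows, and Tac1 held 2 of them while Tiparp and Cyp1a1 held 0. A match of letters is a description and not a measured binding site.

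Signals are array intensities, rescaled so that the mean of each array was 150 after trimming 2% of probe sets at each end. The deposited values had that mean in 9 arrays and a mean of 500 in the 3 C57BL6/J TCDD arrays, so in C57BL6/J cells the treatment and the deposited scaling coincide. After rescaling, array medians were 20.28, 21.54 and 21.87 in C57BL6/J TCDD and 18.1, 18.1 and 19 in C57BL6/J DMSO arrays, still without overlap. In hAHR cells they overlapped, at 18.5, 19.7 and 19.6 with TCDD and 16.5, 19.8 and 23.5 with DMSO. Within each group, correlations between arrays across genes lay between 0.958 and 0.985. Hepatocyte markers were bright in every group, with Alb at group means of 12450 or more. Xist, an RNA of female cells, stood at 2951.6 in C57BL6/J TCDD and 3084.6 in C57BL6/J DMSO replicate 2 and at 29.3 or less elsewhere. The Y-linked gene Eif2s3y was at or under 4.7 in this pair of arrays, whereas each remaining array had 452.7 or more, so the pair look female and the rest male. Tiparp changes in C57BL6/J cells and differences between genotypes are therefore also given without them.

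The comparison within hAHR cells asks what TCDD does to Tiparp in cells that carry human AHR. Tiparp rose 2.59-fold. The brightest probe set, 1426721_s_at, read 3538, 3609 and 3479 in hAHR TCDD arrays and 1327, 1403 and 1342 in hAHR DMSO arrays. The 3 arrays of each group lay close together and far from those of the other group. Means were 3542 ± 65.3 in hAHR TCDD and 1358 ± 40.4 in hAHR DMSO arrays (SD, n = 3 each), and every one of the 9 possible TCDD to DMSO ratios lay between 2.48 and 2.72. On the log2 scale this is 1.37, with a standard error of 0.15 and a 95% confidence interval of 1.04 to 1.70, and adjusted p = 0.00539 from limma after Benjamini-Hochberg adjustment over 18193 genes. Limma called 4 genes higher in this comparison, 0.022% of those tested. Tiparp had the second smallest p of all genes, and 6 genes had a larger log2 change.

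This fit did not pair arrays. With the replicate number as a block, which pairs same-numbered arrays, the log2 change was 1.37 (limma adjusted p = 0.0362). The estimate held between 1.36 and 1.40 with any single array left out, and the call was kept in 7 of these 12 fits. Without hAHR DMSO replicate 1 or 3, or hAHR TCDD replicate 1, 2 or 3, the adjusted p lay between 0.0527 and 0.062 (limma, log2 changes of 1.36 to 1.39).

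In C57BL6/J cells, which carry the mouse receptor, Tiparp rose 2.47-fold. The same probe set read 2575, 3324 and 2534 in C57BL6/J TCDD arrays and 1402, 910.9 and 1098 in C57BL6/J DMSO arrays. The groups did not overlap, but the arrays were more scattered than in hAHR cells, and the 9 possible ratios ran from 1.81 to 3.65. Means were 2811 ± 444 in C57BL6/J TCDD and 1137 ± 248 in C57BL6/J DMSO arrays (SD, n = 3 each). On the log2 scale this is 1.30, with a standard error of 0.15, a 95% confidence interval of 0.97 to 1.64 and adjusted p = 0.0193 (limma). Tiparp was the single gene called here, 0.0055% of those tested, with the smallest p of all, and 3 genes had a larger log2 change.

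The replicate 2 arrays, those with the Xist signal, held both extremes of Tiparp in C57BL6/J cells, the highest value under TCDD and the lowest under DMSO, in each of the 3 probe sets. Without both of them the log2 change was 1.03 (95% confidence interval 0.73 to 1.33, limma adjusted p = 0.145). The part of sex in this was not tested. The call also ended without any single hAHR array (limma adjusted p from 0.0575 to 0.0635, log2 change 1.30 in each fit), which enter through the shared estimate of the spread. With all 12 arrays it ended with arrays scaled to a shared median (log2 1.10, limma adjusted p = 0.542), without the intensity trend (1.30, 0.103) and with the replicate number as a block (1.30, 0.101), and it ended in a fit of the 6 C57BL6/J arrays alone (1.30, 0.986). It also ended without C57BL6/J DMSO replicate 2 (log2 1.16, limma adjusted p = 0.0973) or 3 (1.29, 0.198), and without C57BL6/J TCDD replicate 1 (1.36, 0.0906) or 2 (1.18, 0.0732).

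**Figure D1:**
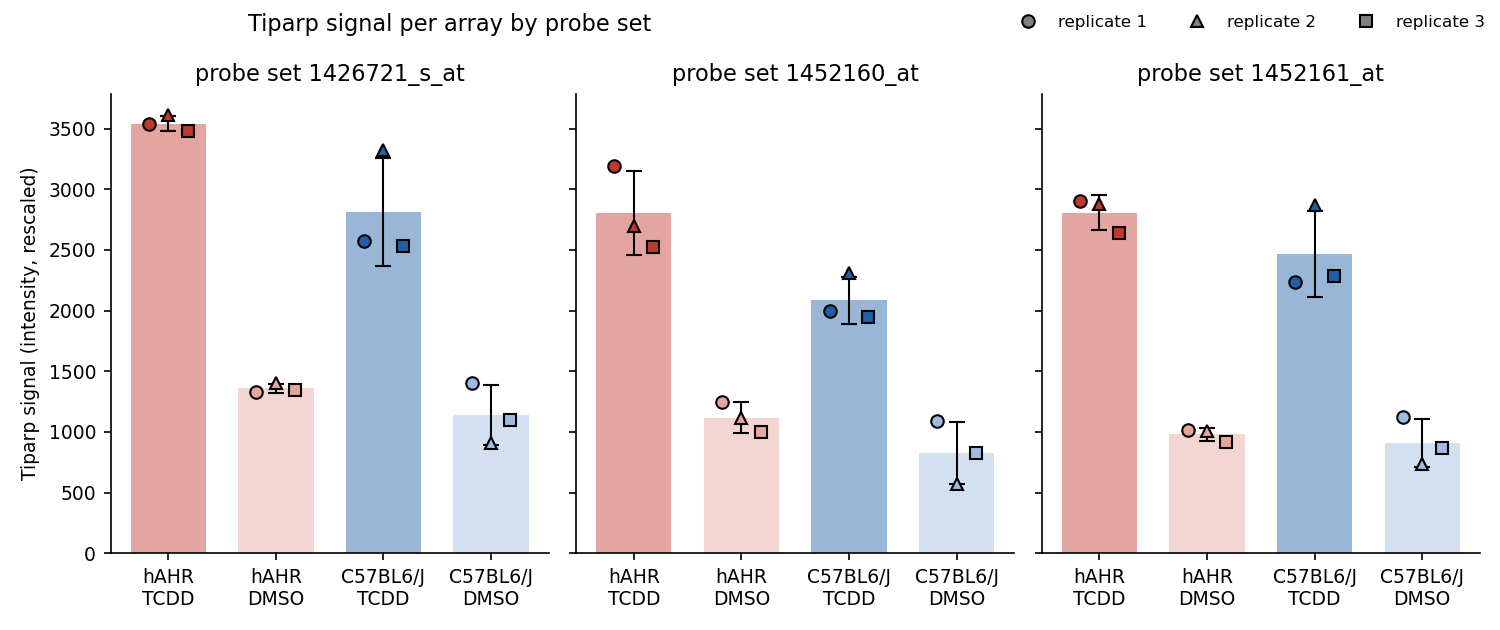
Tiparp signal (rescaled intensity) in each array for the 3 probe sets, with hAHR TCDD, hAHR DMSO, C57BL6/J TCDD and C57BL6/J DMSO arrays from left to right. Bars are group means with SD (n = 3) and the symbols mark replicate numbers; in every panel the TCDD arrays of a genotype lie above its DMSO arrays, and C57BL6/J replicate 2 is the highest C57BL6/J TCDD and the lowest C57BL6/J DMSO array.

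The other probe sets gave the same direction. For 1452161_at, hAHR TCDD arrays read 2902, 2881 and 2638 and hAHR DMSO arrays 1016, 1007 and 917.6. C57BL6/J arrays of this probe set read 2234, 2873 and 2284 with TCDD and 1119, 733.4 and 870.8 with DMSO. Its groups did not overlap in either genotype. When the model was fitted on all 45037 probe sets that are not controls, this probe set changed by 1.50 in hAHR cells (95% confidence interval 1.17 to 1.83, limma adjusted p = 0.00375) and by 1.44 in C57BL6/J cells (1.10 to 1.77, limma adjusted p = 0.0117). Without both C57BL6/J replicate 2 arrays its C57BL6/J change was 1.18 (limma adjusted p = 0.153).

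The remaining probe set, 1452160_at, was noisier and missed the threshold in that fit. It read 3189, 2695 and 2521 in hAHR TCDD arrays and 1243, 1117 and 994.8 in hAHR DMSO arrays, a log2 change of 1.31 (0.90 to 1.73, limma adjusted p = 0.0671). In C57BL6/J cells it read 2000, 2308 and 1947 in TCDD arrays and 1086, 572.6 and 825.9 in DMSO arrays, a log2 change of 1.36 (0.94 to 1.77, limma adjusted p = 0.0917), which was 1.05 (0.587) without both replicate 2 arrays. Here too the groups did not overlap in either genotype. With an offset of 1 in place of 16 it passed in hAHR cells (1.32, limma adjusted p = 0.0457).

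In the fit over all probe sets, 3 were called in hAHR cells (0.00666%) and 2 in C57BL6/J cells (0.00444%), and the 2 in C57BL6/J cells were both Tiparp probe sets. Across the 12 arrays the log2 values of the 3 probe sets correlated with Pearson r from 0.969 to 0.992, and after removing the group means with r from 0.828 to 0.962. These are correlations across arrays of probe sets that share the same RNA, given as a description. The scatter among C57BL6/J arrays was thus shared by the 3 probe sets.

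The scatter in hAHR cells was narrowest for the brightest probe set. For 1426721_s_at the SD of log2 values was 0.026 in hAHR TCDD, 0.042 in hAHR DMSO, 0.218 in C57BL6/J TCDD and 0.308 in C57BL6/J DMSO arrays. Of the 10916 genes in the brighter 60%, 1.59% had a smaller SD in hAHR TCDD and 4.12% in hAHR DMSO arrays, against 38.3% in C57BL6/J TCDD and 74.5% in C57BL6/J DMSO arrays. The SD of 1452160_at was 0.174 in hAHR TCDD and 0.158 in hAHR DMSO arrays, close to the median of 0.193 and 0.19 over those genes, and that of 1452161_at was 0.076 and 0.08.

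**Figure D2:**
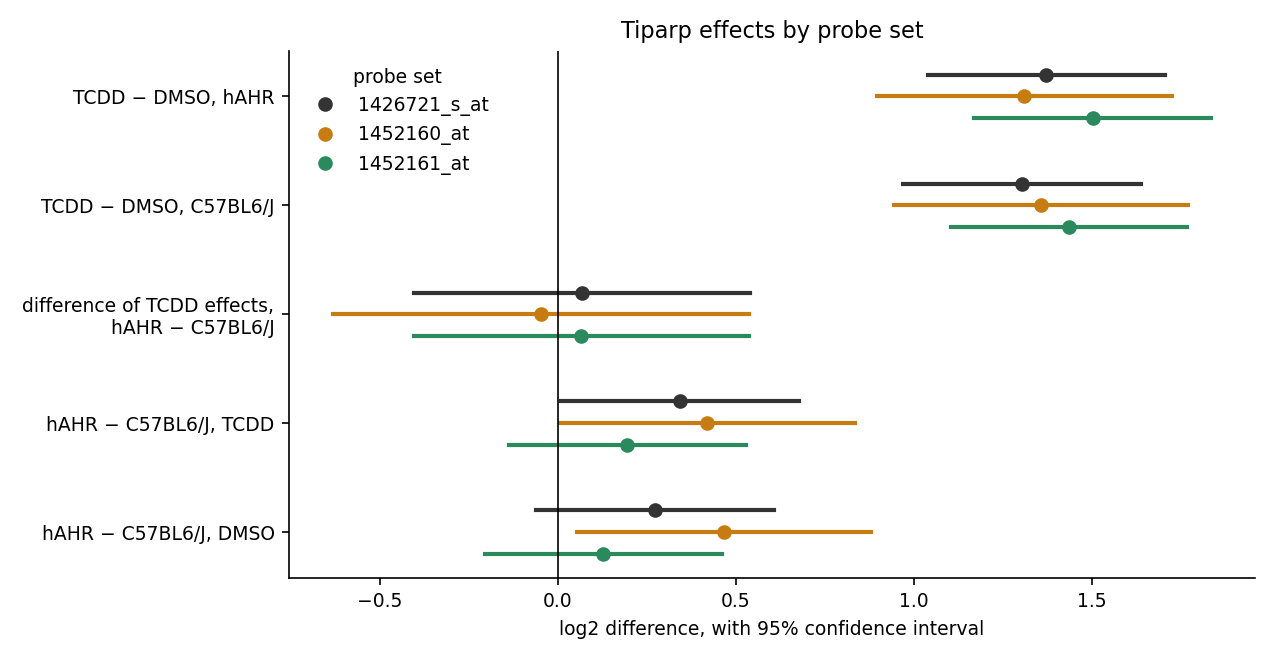
Log2 differences of the 3 Tiparp probe sets with 95% confidence intervals from the fit over all probe sets, for TCDD against DMSO by genotype, for hAHR minus C57BL6/J of those effects, and for hAHR against C57BL6/J under each treatment. The TCDD effects lie between 1.30 and 1.50 and their intervals stay above 0, while every interval for the difference between genotypes in that effect spans 0.

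Averaged over both genotypes, the TCDD effect on Tiparp was 1.34 on the log2 scale (95% confidence interval 1.10 to 1.57, limma adjusted p = 0.000242), with all 3 TCDD arrays above all 3 DMSO arrays in each genotype. It had the smallest p of all genes, and 4 genes, 0.022% of those tested, were called higher. This value stayed called in each of the 12 fits that left out 1 array, between 1.27 and 1.42, and without both C57BL6/J replicate 2 arrays it was 1.20 (limma adjusted p = 0.00013). An exact permutation test of the treatment labels within genotypes gave p = 0.005 (two-sided) for each of the 3 probe sets, the smallest that its 400 arrangements allow. When same-numbered hAHR arrays were kept as pairs, the exact p was 0.0125 for each, the smallest that 160 arrangements allow. C57BL6/J labels were still permuted freely there, so that test does not cover pairs of C57BL6/J arrays. Within 1 genotype such an exact test cannot go below p = 0.1 for 3 arrays against 3, or below 0.25 with 3 pairs.

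Of 6 markers of stellate cells and fibroblasts, the collagen-making cells of the liver, limma called 0 for TCDD. In both genotypes all TCDD arrays lay above all DMSO arrays for Reln (0.88 in hAHR and 0.66 in C57BL6/J cells) and below them for Acta2 (-1.15 and -0.65), with Lrat also below in C57BL6/J cells. Over all genes, 3.35% lay above and 3.85% below in hAHR cells, and 6.19% and 2.81% in C57BL6/J cells. An unadjusted p under 0.05 was reached by 2 of the 6 in hAHR cells, against 2.9% of all genes, and by 1 in C57BL6/J cells, against 4.18%. Their summed signal ranged from 171.7 to 235.3 in hAHR TCDD, 125.7 to 241.3 in hAHR DMSO, 103.1 to 150.7 in C57BL6/J TCDD and 86.7 to 143.0 in C57BL6/J DMSO arrays, so the sums overlapped in both genotypes, and none of the group means was at 0. Sums did not overlap in C57BL6/J cells for 6 endothelial markers, at 141.5 to 160.3 in TCDD against 117.2 to 129.7 in DMSO arrays, and for 4 cholangiocyte (bile duct cell) markers, at 601.9 to 693.3 in TCDD against 763.8 to 929.6 in DMSO arrays. In hAHR cells both sums overlapped, at 142.5 to 199.1 in TCDD and 132.8 to 244.1 in DMSO arrays for endothelial and 533.4 to 1144 in TCDD and 533.4 to 1371 in DMSO arrays for cholangiocyte markers. Limma called 0 of these 10 genes, and 0 had an unadjusted p under 0.05. Of 4 lymphocyte markers, 1 lay above and 1 below without overlap in hAHR cells, and 1 had an unadjusted p under 0.05 in C57BL6/J cells. Of 6 markers of liver macrophages, 1 lay above without overlap in C57BL6/J cells. Neither list had a gene called. The part of these cell types in the Tiparp result was not tested.

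Whether Tiparp rose to a different degree in hAHR and C57BL6/J cells was tested as an interaction of genotype and treatment. The TCDD effect in hAHR minus that in C57BL6/J cells was 0.07 on the log2 scale (95% confidence interval -0.40 to 0.54, limma adjusted p = 0.999). The interval corresponds to a response in hAHR cells of between 0.758 and 1.45 times that in C57BL6/J cells. Differences within that range are compatible with these arrays, and the interval is not a limit of detection. Probe set 1452160_at gave -0.05 and 1452161_at 0.07. Without both C57BL6/J replicate 2 arrays the value was 0.34 (-0.05 to 0.73, limma adjusted p = 0.951), the other probe sets stood at 0.26 and 0.32, and without C57BL6/J DMSO replicate 1 the sign of the first value turned, at -0.09 (-0.52 to 0.34).

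The levels followed the same order in each probe set, with hAHR TCDD highest, then C57BL6/J TCDD, hAHR DMSO and C57BL6/J DMSO. The C57BL6/J TCDD arrays all lay above the hAHR DMSO arrays, at 2534 or more against 1403 or less for 1426721_s_at. The differences between genotypes under 1 treatment did not pass the test. Under TCDD, hAHR lay above C57BL6/J by 0.34 on the log2 scale (95% confidence interval 0.01 to 0.67, limma adjusted p = 1). Arrays of these groups did not overlap for 1426721_s_at and 1452160_at, but they did for 1452161_at. Under DMSO, hAHR lay above C57BL6/J by 0.27 (-0.06 to 0.61, limma adjusted p = 0.965), and the arrays overlapped. The other probe sets gave 0.47 (0.05 to 0.88) for 1452160_at and 0.13 (-0.20 to 0.46) for 1452161_at, each with a limma adjusted p of 0.992. The value of 0.27 became 0.43 (0.12 to 0.75, limma adjusted p = 0.872) without C57BL6/J DMSO replicate 1 and 0.13 (-0.20 to 0.46, limma adjusted p = 0.999) without C57BL6/J DMSO replicate 2. Without both C57BL6/J replicate 2 arrays these values were 0.47 under TCDD (limma adjusted p = 0.596) and 0.13 under DMSO (limma adjusted p = 0.999). In these genotype comparisons markers of Kupffer cells, the macrophages of the liver, stood above C57BL6/J in hAHR arrays without overlap for 4 of 6 markers under TCDD and 2 of 6 under DMSO, and 0 stood below or were called. Over all genes, 3.23% stood above and 4.88% below under TCDD, and 6.28% above and 4.44% below under DMSO. The summed Kupffer signal ranged from 1796 to 3651 in hAHR TCDD, 1804 to 4103 in C57BL6/J TCDD, 2000 to 3935 in hAHR DMSO and 1857 to 3355 in C57BL6/J DMSO arrays, most of it from Cd68. None of the group means was at 0, and Marco averaged 50.1 in hAHR TCDD, 1.49 in C57BL6/J TCDD, 49.5 in hAHR DMSO and 1.63 in C57BL6/J DMSO arrays. Their part in the Tiparp level was not tested, and in such mixed RNA fewer cells of a type and less RNA per cell cannot be told apart.

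Cyp1a1 varied far more among C57BL6/J TCDD cultures than Tiparp. It read 6624, 4004 and 6939 in hAHR TCDD arrays and 81.9, 63.0 and 60.5 in hAHR DMSO arrays. Among C57BL6/J arrays it read 124.9, 2518 and 64.89 with TCDD and 25.3, 24.0 and 18.5 with DMSO. The coefficient of variation among C57BL6/J TCDD arrays was 155% for Cyp1a1 and 15.8% for Tiparp. The C57BL6/J TCDD array with the highest Cyp1a1 signal, replicate 2, was also the one with the highest Tiparp signal. Cyp1a1 changed by 6.09 on the log2 scale in hAHR cells (limma adjusted p = 0.0427), and stood at 3.00 in C57BL6/J cells (limma adjusted p = 0.966).

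Cyp1a2, a related cytochrome of liver, was at 3207 ± 313 in hAHR TCDD and 2975 ± 390 in hAHR DMSO arrays (SD, n = 3 each), a log2 difference of 0.11 (limma adjusted p = 1). It was at 1150 ± 567 in C57BL6/J TCDD and 591 ± 154 in C57BL6/J DMSO arrays, a difference of 0.87 (limma adjusted p = 0.966). Its level under DMSO already differed between genotypes, by 2.32 (hAHR minus C57BL6/J, limma adjusted p = 0.0085), whereas that of Tiparp was not called.

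**Figure D3:**
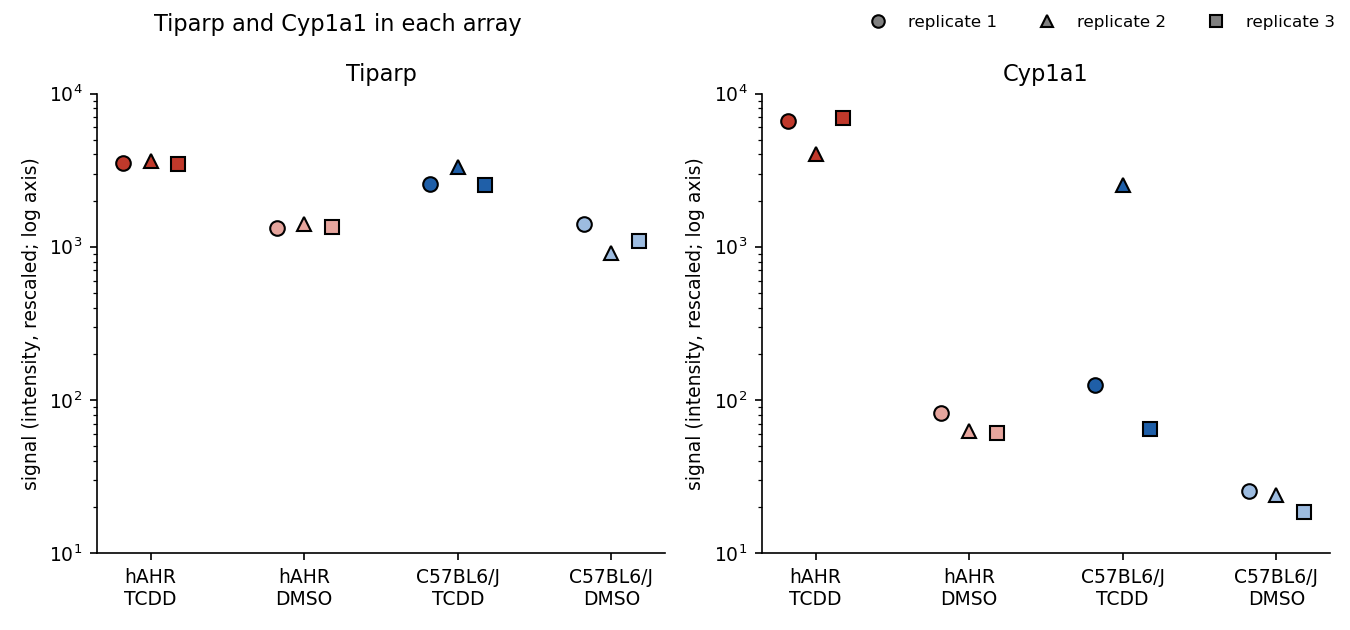
Signal of Tiparp (left) and Cyp1a1 (right) in each of the 12 arrays on a log axis, by group, with symbols for the replicate number. Tiparp lies between 2534 and 3609 in all 6 TCDD arrays, while Cyp1a1 ranges from 64.89 to 2518 among C57BL6/J TCDD arrays and from 4004 to 6939 among hAHR TCDD arrays.

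The receptor and its partners did not pass the test. The list of the receptor complex and its repressor had 7 of 10 genes measured by a probe set of their own, and in either genotype limma called 0 and 0 had an unadjusted p under 0.05. Ahr, the mouse receptor, averaged 211 ± 16.4 in hAHR TCDD and 217 ± 22.2 in hAHR DMSO arrays, and 303 ± 121 in C57BL6/J TCDD and 374 ± 210 in C57BL6/J DMSO arrays (SD, n = 3 each). The highest C57BL6/J values were those of the Xist-high arrays, at 442.3 in TCDD and 616.7 in DMSO replicate 2. The other C57BL6/J DMSO arrays, at 261.3 and 244.7, also lay above all hAHR DMSO arrays, at 235.9 or less. Under DMSO hAHR was thus lower without overlap (log2 -0.62, limma adjusted p = 0.965), as were 4.44% of all genes. Under TCDD the groups overlapped. No source used here places the Ahr probe set inside or outside the floxed part, so its signal does not check the label, and human AHR was not analysed. Arnt, the partner of the receptor, stood at 0.01 in hAHR and -0.06 in C57BL6/J cells. Ahrr, the repressor that competes with the receptor, had signals of 12.1 or less in all arrays, and stood at 0.31 in hAHR cells and 0.13 in C57BL6/J cells.

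Among 16 measured AHR target genes other than Tiparp, 1 was called by limma in hAHR cells (Cyp1a1) and 0 in C57BL6/J cells. An unadjusted p under 0.05 was reached by 7 of the 16 in hAHR cells, against 2.9% of all genes, and by 6 in C57BL6/J cells, against 4.18%. Both counts include Rgs2, which was lower with TCDD. The list was chosen with earlier results of these data known, so its counts are a description. In 4 of the 16 all hAHR TCDD arrays lay above all hAHR DMSO arrays and in 0 below, against 3.35% of all genes above and 3.85% below. In C57BL6/J cells 4 lay above and 1 below, against 6.19% and 2.81% of all genes. The median log2 difference was 0.24 in hAHR and 0.38 in C57BL6/J cells, beside -0.01 and 0.03 over all genes. Without the C57BL6/J replicate 2 arrays, 7 lay above and 3 below, against 19.3% and 15.5% of all genes with 2 arrays a group.

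Nfe2l2, coding for NRF2, a regulator of antioxidant genes, stood at 0.60 in hAHR and 0.45 in C57BL6/J cells. Nqo1, a quinone reductase, stood at 0.62 and 0.41. Xdh, an enzyme that makes uric acid, stood at 0.57 and 0.65, and Pmm1, a phosphomannomutase, at 0.42 and 0.59. Cyp1b1, the third cytochrome of the family, stood at 1.02 and 0.66 on signals of 44.1 or less in every array. Rgs2, a regulator of G protein signalling, stood at -1.70 in hAHR and -1.88 in C57BL6/J cells with overlapping groups. In these 6 genes the limma adjusted p was 0.966 or more in both genotypes, with an unadjusted p under 0.05 in at least 1.

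Tiparp was the single ADP-ribosyltransferase of the PARP family that passed the test. Most members of the family use NAD to modify proteins, DNA or RNA. Of its 16 listed genes, 15 were measured. The other 14 lay between -0.24 and 0.17 in hAHR cells and between -0.50 and 0.37 in C57BL6/J cells, all below the lower confidence bound of Tiparp. Their medians were -0.02 in hAHR and 0.03 in C57BL6/J cells. Parp12 and Zc3hav1, which share zinc fingers with TIPARP and act in antiviral defence, stood at -0.16 and 0.01 in hAHR and at -0.22 and 0.31 in C57BL6/J cells. Parp1, the main DNA damage sensor of the family, stood at 0.03 and -0.02. Groups did not overlap for Parp2, higher in hAHR cells (0.17), and for Tnks, higher in C57BL6/J cells (0.22), so 1 of 14 in each genotype beside 3.35% of all genes in hAHR and 6.19% in C57BL6/J cells, and 0 of the 14 had an unadjusted p under 0.05 in either genotype.

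Genes that remove or bind ADP-ribose, and genes that make or use its source NAD, had 0 calls by limma as well. Of 8 measured genes for removal and binding, Macrod1, which takes single ADP-ribose units off proteins, stood at -0.19 in hAHR and 0.24 in C57BL6/J cells, and all 8 lay between -0.29 and 0.26. Of 21 measured NAD genes, Nampt, the enzyme of NAD salvage, stood at -0.10 and 0.01, and all lay between -0.40 and 0.60. In these lists 0 genes had an unadjusted p under 0.05. The 8 measured genes whose products are reported substrates or partners of TIPARP, among them Hif1a and Myc, lay between -0.33 and 0.35, with 0 called and 0 at an unadjusted p under 0.05. Pck1, a gluconeogenic enzyme modified by TIPARP in chick liver, stood at -0.28 in hAHR and 0.34 in C57BL6/J cells, with an unadjusted p of 0.590 and 0.519.

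**Figure D4:**
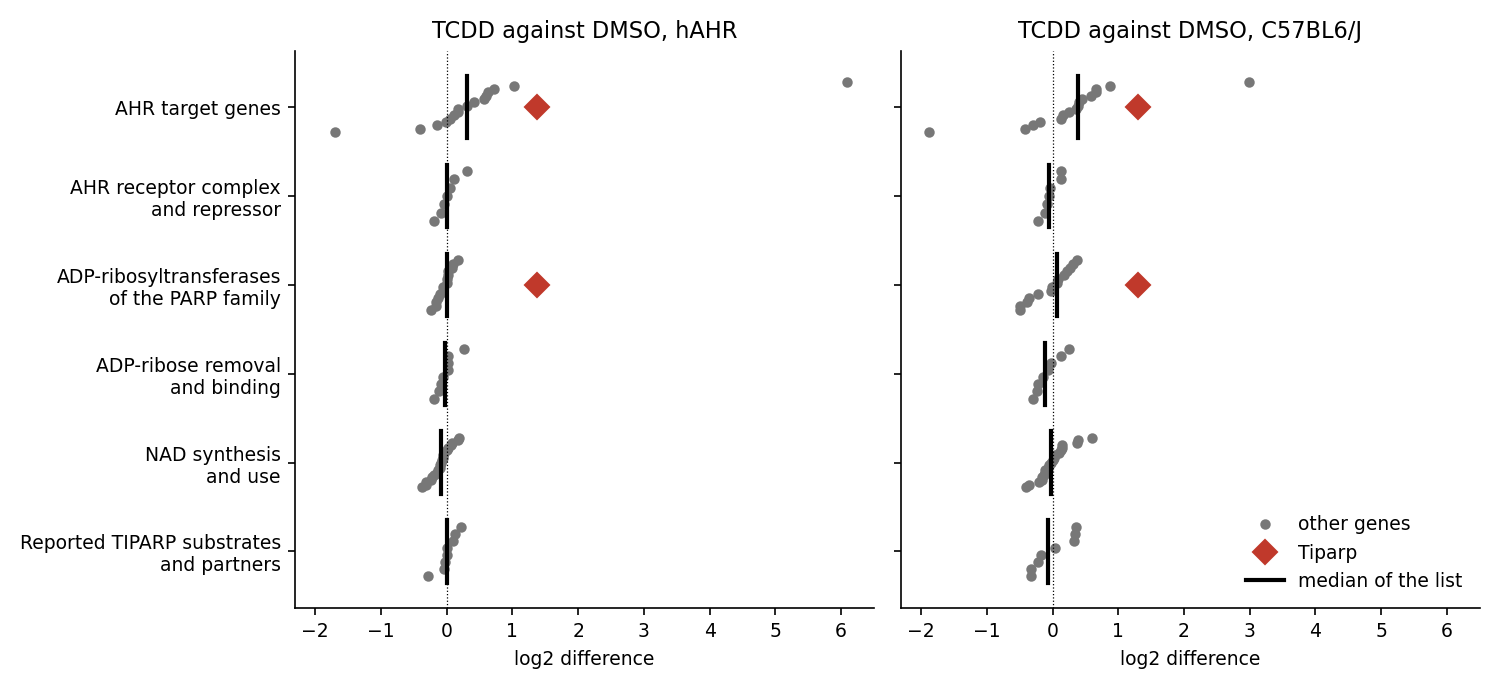
Log2 differences, TCDD against DMSO, of the measured members of 6 gene lists in hAHR (left) and C57BL6/J (right) cells. Diamonds are Tiparp, circles the other genes and black lines the median of each list; Tiparp stands apart from the 14 other measured PARP family genes in both panels, at 1.37 and 1.30.

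The genes whose pattern was most like that of Tiparp were ranked by Pearson r of log2 values over the 12 arrays, among 10915 other genes in the brighter 60%. The arrays share treatment and genotype, so these values describe a common pattern of groups. The 10 highest were Edc3 (0.94), B3galnt2 (0.91), Etnk1 (0.91), Rab30 (0.90), Cyp1a1 (0.88), Coa4 (0.88), Tac1 (0.86), Rnf39 (0.84), Txnl4a (0.83) and Rnf217 (0.82). With group means removed, r with Tiparp lay between -0.37 and 0.65 for these genes.

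Edc3, a scaffold of the machinery that removes mRNA caps, came first. It read 233.0, 222.0 and 209.4 in hAHR TCDD arrays and 143.8, 154.7 and 139.2 in hAHR DMSO arrays. Its C57BL6/J readings were 163.7, 241.1 and 187.9 with TCDD and 125.9, 132.1 and 135.0 with DMSO, again without overlap. Its differences, 0.55 in hAHR and 0.52 in C57BL6/J cells, were near each other in size but were not called (limma adjusted p = 1 and 0.966).

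Tac1, shown above by its start region, read 1145, 474.9 and 427.8 in hAHR TCDD arrays and 194.9, 269.7 and 97.0 in hAHR DMSO arrays. Its C57BL6/J readings were 387.5, 509.8 and 448.5 with TCDD and 202.8, 49.0 and 252.2 with DMSO. Groups did not overlap in either genotype, at 1.74 in hAHR and 1.56 in C57BL6/J cells, yet the scatter was wide and neither was called (limma adjusted p = 1 and 0.966). In C57BL6/J DMSO arrays both Tac1 and Tiparp were lowest in replicate 2.

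B3galnt2, a glycosyltransferase, and Rab30, a small GTPase of the Golgi, were the other genes called in hAHR cells, at 1.44 and 1.63. They stood at 0.91 (limma adjusted p = 0.374) and 1.05 (0.966) in C57BL6/J cells. In 43 genes, 0.236% of those tested, all TCDD arrays lay above all DMSO arrays in both genotypes, and Tiparp was the third of them when ranked by the smaller of its log2 differences, after Cyp1a1 and Tac1. Taken singly, 3.35% of all genes lay above in hAHR and 6.19% in C57BL6/J cells. Whether more genes were common to both than unrelated overlap gives was not tested. Some of the 43 had very low signals, such as Fabp6 with group means of 7.4 or less. Of the 10 genes most like Tiparp, 7 had a RefSeq window, and 6 of these held the core GCGTG. The gene without it was Edc3, the one most like Tiparp, while Tac1 held the most cores, at 3. Of the 16 measured AHR target genes, 14 had a window and 8 of these held the core. The core was held by 44.8% of windows of the brighter genes, from which the first set was taken, and by 28.2% of all windows. The AHR target genes were not limited to the brighter ones. These shares count windows, whereas the 6 and the 8 count genes, so they are not like measures.

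**Figure D5:**
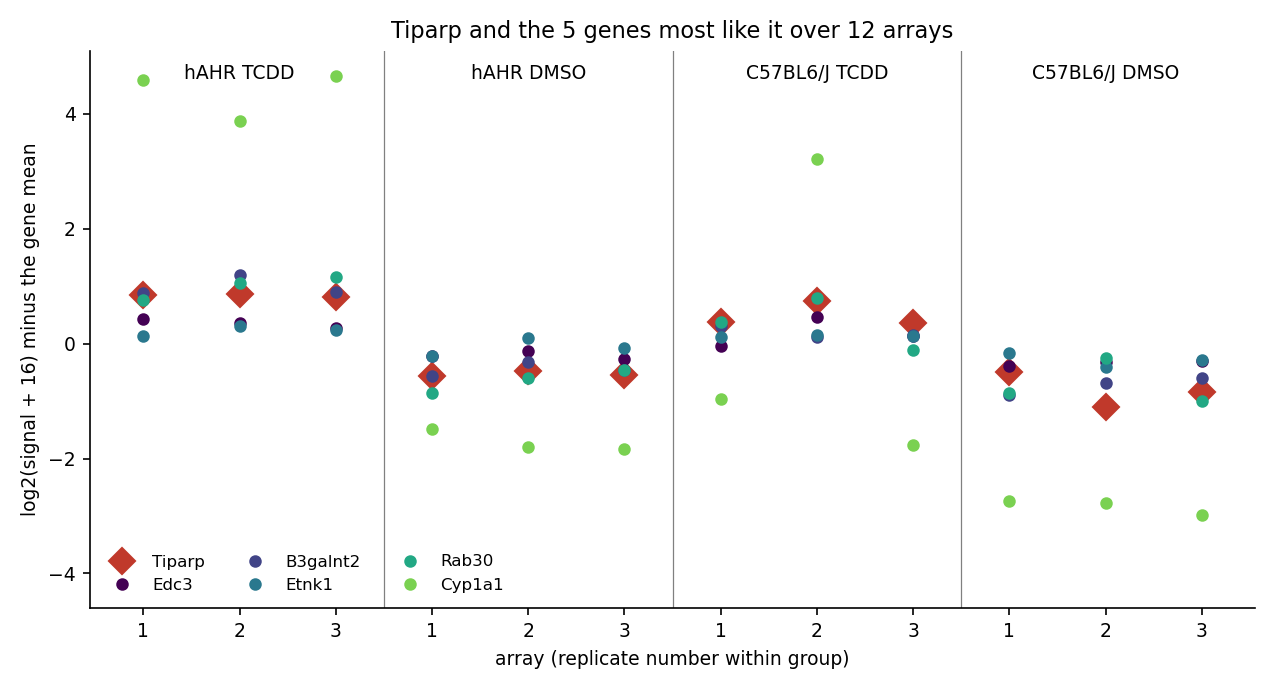
Log2(signal + 16) minus the mean of the gene over 12 arrays, for Tiparp (diamonds) and the 5 genes with the highest correlation with it (circles), with replicate numbers within each group on the horizontal axis. TCDD arrays of both genotypes lie above the DMSO arrays of the same genotype for each gene, and Cyp1a1 in C57BL6/J TCDD replicate 2 lies far above replicates 1 and 3.

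The neighbours of Tiparp on its chromosome did not pass the test. By RefSeq gene order on chromosome 3 (GRCm38.p6), the 3 nearest measured genes on one side were Ssr3, Kcnab1 and Vmn2r1 and on the other Lekr1, Ccnl1 and Veph1. They lay between -0.22 and 0.31 in hAHR cells and between -0.22 and 0.54 in C57BL6/J cells, and limma called 0, with an unadjusted p under 0.05 for 1, Ccnl1, in C57BL6/J cells. Without overlap, Ccnl1 and Vmn2r1 lay above and Veph1 below in C57BL6/J cells, against 6.19% and 2.81% of all genes. None did so in hAHR cells. Ccnl1, a cyclin that acts in RNA splicing, stood highest of these neighbours in both genotypes. It read 1182, 1357 and 1789 in C57BL6/J TCDD arrays and 955.5, 924.1 and 1049 in C57BL6/J DMSO arrays, a difference of 0.54 (95% confidence interval 0.19 to 0.88, limma adjusted p = 0.966). In hAHR cells its groups overlapped, at 0.31 (-0.04 to 0.65, limma adjusted p = 1). Ssr3, next to Tiparp and coding for a subunit of the translocon of the endoplasmic reticulum, stood at 0.06 and 0.01. Kcnab1, Lekr1, Veph1 and Vmn2r1 had signals of 25 or less in every array.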

How the data were processed

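The 12 deposited columns held array intensity values of 45101 probe sets. Per the design text and the submitters' processing notes, the authors' normalisation of these intensities was PLIER-MM (Affymetrix Expression Console 1.1), yet their trimmed means of 150 and 500 are what global scaling gives. Each array was rescaled to 150, 64 control probe sets were removed, and log2(value + 16) was taken. A gene was read by its brightest probe set annotated to it alone (18193 genes), with symbols updated through RefSeq gene IDs. The 4 group means were fitted to the 12 arrays together in limma 3.58.1 (R 4.3.3, intensity trend, 8 residual degrees of freedom, two-sided), with Benjamini-Hochberg adjustment over all genes at 0.05. No filter on low values was used, so every Tiparp probe set entered. Folds include the offset of 16. The fit was run on simulated data with independent noise in each array and changes planted in hAHR TCDD arrays alone. That check held no paired arrays and no scaling difference, so it does not speak to either.

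Named genes were Tiparp, the core AHR genes, list members with an unadjusted p under 0.05 in a TCDD comparison, called genes, the 10 most like Tiparp and 3 neighbours on each side; any other list member named serves as an example of its list. The members and lists were chosen with earlier results of these data known. Alternatives covered offsets of 1 and 50, quantile normalisation, a shared median, no rescaling, leaving out the dimmest 40% of genes, the variance model, the arrays fitted, the handling of probe sets, a replicate block, and each array left out in turn, with both C57BL6/J replicate 2 arrays left out of list counts and single probe sets, and hAHR pairs kept in the permutation test, added after seeing the data. Same-numbered TCDD and DMSO arrays were checked for pairing by the correlation across genes of their deviations from the group means. These were 0.239, 0.265 and 0.191 in hAHR cells, which were taken as paired on this basis alone. In C57BL6/J cells they were 0.25, 0.508 and 0.049, and these arrays were not taken as paired. There TCDD replicate 3 correlated more with DMSO replicate 1 (0.283) than with DMSO replicate 3 (0.049). The values of 0.25 and 0.508 are not below the 0.239 of hAHR cells, so pairing of C57BL6/J arrays is not excluded. The value of 0.508 is that of replicate 2, the pair that looks female. The main fit paired no arrays, and the replicate block paired same-numbered arrays in both genotypes. No 2 arrays held identical values. Nothing in the labels says how cultures were prepared beyond 1 mouse per array, and precision is limited by how few arrays there are. Python 3.11.15 and matplotlib 3.10.9 drew the figures.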

Additional observations from a re-analysis of the deposited data

How the results depend on the processing

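The direction of the TCDD effect on Tiparp was the same in every alternative run. In hAHR cells its log2 change lay between 1.36 and 1.40 with 1 array left out (limma adjusted p from 0.00194 to 0.062) and between 1.34 and 1.41 otherwise, where it stayed called. The replicate block pairs same-numbered arrays in both genotypes. With it the log2 change in hAHR cells was 1.37 (limma adjusted p = 0.0362), and the block ended no other call of Tiparp outside C57BL6/J cells. In C57BL6/J cells it lay between 1.16 and 1.46 with 1 array left out. There it was no longer called with the shared median (1.10, limma adjusted p = 0.542), without the intensity trend (1.30, 0.103), from its 6 arrays alone (1.30, 0.986), with the replicate block (1.30, 0.101) or without both replicate 2 arrays (1.03, 0.145). The cause was not tested, beyond the fewer arrays in some of these fits. As deposited, without rescaling, the C57BL6/J change was 3.04, with 14780 genes called, the difference of effects -1.66 and the genotype difference under TCDD -1.39, all set by the 3.333-fold higher scaling of 3 arrays. The difference of effects lay between -0.09 and 0.22 with 1 array left out. Genes called in hAHR cells numbered 4, and 2 with quantile normalisation, without rescaling or without the trend, 1 with the mean over probe sets, and 0 to 6 with 1 array left out. Genes called in C57BL6/J cells numbered 1, and 0 with the shared median, without the trend, from 6 arrays alone or without both replicate 2 arrays, 2 with array weights, 2 probe sets with every probe set tested, and 0 to 1 with 1 array left out. Probe set 1452160_at passed in hAHR cells with an offset of 1 (1.32). With every probe set tested and both C57BL6/J replicate 2 arrays left out, a choice made after seeing the data, the C57BL6/J change was no longer called for 1426721_s_at (1.03) and 1452161_at (1.18), and the difference of effects turned sign for 1452160_at (0.26).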

Other observations

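Under DMSO alone, 4 of the 14 other PARP family genes had groups that did not overlap between genotypes. Zc3hav1 (0.31) and Parp8 (0.28) were above C57BL6/J in hAHR cells, and Parp4 (-0.54) and Parp9 (-0.37), a partner in interferon signalling, were below, with a limma adjusted p of 0.965 each. Over all genes the shares were 6.28% above and 4.44% below. Under TCDD, 1 of the 14 had groups that did not overlap, above C57BL6/J, where the share over all genes was 3.23%.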
